A study of Homo sapiens with 6 samples.

Results

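miR-132 and miR-212 are processed from neighboring hairpins on chromosome 17, and each hairpin gives a 5p and a 3p strand. These 4 mature miRNAs (hsa-miR-132-3p, hsa-miR-132-5p, hsa-miR-212-3p and hsa-miR-212-5p) were taken by name from the 2588 miRNAs of the deposited table. The locus was chosen by values of the same 6 libraries, since earlier results of the comparison of *MIR21*-KO with Ctrl, in which miR-212-3p stood out, were in view. Differences between the conditions are therefore given as a description, with no p-value of single members. How many strands passed a threshold is given beside the share of all miRNAs that did, and nothing is read from these counts, since they come from the comparison that led to the choice. The samples are small RNA libraries of A549, a cell line established from a human lung adenocarcinoma, and comprise 3 from the parental line (Ctrl) and 3 from cells that had lost the *MIR21* locus by CRISPR/Cas9 deletion (*MIR21*-KO). The harvest was 48 h after seeding in each case. The knockout was made from sorted single cells, so *MIR21*-KO cells descend from clones, whereas Ctrl cells are the parental line. The study's methods describe its experiments in general as biological triplicates. The labels do not tie these libraries to separate cultures or clones, so the tests measure the spread between the libraries, whatever its source.

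The locus is known as a target of CREB, a transcription factor that binds cAMP response elements once it is phosphorylated downstream of neuronal activity, hormones or growth factors. In neurons, miR-132 promotes dendrite growth and represses the RhoGAP ARHGAP32. In endothelial cells it represses the Ras inhibitor RASA1. A miRNA hairpin is cut by Drosha and Dicer into a duplex, of which one strand is kept by an Argonaute protein, and the seed at the 5′ end of that strand selects target mRNAs. CREB itself, its phosphorylation and target mRNAs were not measured in these libraries.

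All 4 strands had a mature sequence in RefSeq. They are shown 5′ to 3′ with the seed, bases 2 to 8, in capitals, because the strands differ in whether they share it.
miR-132-3p: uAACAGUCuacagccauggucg
miR-212-3p: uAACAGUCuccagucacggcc
miR-132-5p: aCCGUGGCuuucgauuguuacu
miR-212-5p: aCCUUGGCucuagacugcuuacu
The 3p strands have the same seed and were identical over the 9 bases from the 5′ end and at 17 of 21 positions. The 5p strands differ within the seed and were identical at 14 of 22 positions. Among the miRNAs of the table with a RefSeq sequence, these 4 strands were the only ones with any of these seeds. Full-length reads of the strands thus differ in sequence, although how the authors' counting treated shortened reads is not known.

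In GRCh38.p14 the hairpin of miR-132 spans chr17:2049908-2050008 and that of miR-212 chr17:2050271-2050380, both on the minus strand with 262 bases between them. miR-212 lies upstream in the direction of transcription. GENCODE 29 lists both as single-exon miRNA genes outside of any other gene, with *HIC1*, a zinc-finger repressor gene, at a distance of 3774 bases on the opposite strand. The hairpins are shown with the mature strands in capitals, the 5p strand before the 3p strand.
MIR132: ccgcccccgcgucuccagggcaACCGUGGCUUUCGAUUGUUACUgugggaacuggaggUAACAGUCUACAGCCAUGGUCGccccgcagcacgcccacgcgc
MIR212: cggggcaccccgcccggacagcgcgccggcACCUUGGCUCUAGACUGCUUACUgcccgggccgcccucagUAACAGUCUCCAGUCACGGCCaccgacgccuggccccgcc

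RefSeq places the start of a non-coding transcript, LOC124903896, within the miR-132 hairpin, and its promoter window covers most of the gap between the hairpins. The stretch from that window directly upstream of the miR-132 hairpin, chr17:2050009-2050199 on the minus strand, is shown because it bears on the CREB label, with a match to the palindromic cAMP response element in capitals.
LOC124903896: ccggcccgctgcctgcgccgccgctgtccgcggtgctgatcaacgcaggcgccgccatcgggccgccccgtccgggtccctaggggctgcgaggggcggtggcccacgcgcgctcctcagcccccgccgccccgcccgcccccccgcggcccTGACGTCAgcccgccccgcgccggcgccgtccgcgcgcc
The motif TGACGTCA, which reads the same on both strands, occurred 1 time in the 300-base window, at chr17:2050040-2050047. Its near edge lies 32 bases upstream of the first base of the miR-132 hairpin, and the other edge lies 224 bases from the miR-212 hairpin. Of 35116 windows of this length in the RefSeq promoter table, 649 (1.85%) hold it. The shorter TGACG, which is part of it, was present in 24.6% of the windows on either strand. A match of letters is a description, and binding of CREB was not measured.

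The depth was 5577287 to 9768152 miRNA reads per library. The deposited values are reads multiplied by 1 scaling factor per library (TMM-scaled CPM), in which 1 read was worth 0.0720 to 0.270. The check of the knockout held in each library, as miR-21-5p made up 65.5% to 69.4% of Ctrl reads and 0.0156% to 0.0254% of *MIR21*-KO reads. The libraries also fell into sets that the labels do not give. The first principal component of the 603 miRNAs tested other than the members held 64.2% of the variance and put Ctrl replicates 1 and 2 with *MIR21*-KO replicate 3 (set A), and Ctrl replicate 3 with *MIR21*-KO replicates 1 and 2 (set B). What the sets stand for was not tested, and values are given below within them as well as pooled.

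miR-132-3p, the strand for which most targets of the locus are known, had values of 249, 245 and 81.1 in replicates 1 to 3 of Ctrl. In replicates 1 to 3 of *MIR21*-KO it had 253, 215 and 709. *MIR21*-KO replicate 3 was high and Ctrl replicate 3 was low, and the groups overlapped. The mean of Ctrl was 192 ± 95.8 and that of *MIR21*-KO was 392 ± 275 (SD, n = 3 each), which gave a log2 fold change of 0.98 (standard error 0.67) in the limma fit across all miRNAs. This difference was within the spread of the libraries. Within set A, *MIR21*-KO was 2.87-fold above Ctrl, and within set B it was 2.89-fold above. Leaving out Ctrl replicate 3 or *MIR21*-KO replicate 3, each the lone library of its condition in a set, lowered the pooled log2 fold change to 0.45 in each case.

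For miR-132-5p, the opposite strand of this hairpin, the Ctrl libraries held 104, 135 and 91.4 and the *MIR21*-KO libraries held 263, 193 and 260. This strand varied least among the members, and every *MIR21*-KO library lay above every Ctrl library. The means were 110 ± 22.4 (SD, n = 3) and 239 ± 39.6 (SD, n = 3), with a log2 fold change of 1.11 (standard error 0.42). *MIR21*-KO was 2.17-fold above Ctrl within set A and 2.49-fold within set B.

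miR-212-3p shares its seed with miR-132-3p but was scarce. Ctrl values of 1.60, 3.24 and 5.50 came from 6, 12 and 39 reads. *MIR21*-KO values of 23.8, 23.3 and 8.45 came from 331, 323 and 65 reads. The groups did not overlap, although *MIR21*-KO replicate 3 lay closer to Ctrl replicate 3 than to the other *MIR21*-KO libraries. With 6 reads, the share of miR-212-3p in Ctrl replicate 1 was 0.873 RPM, with a 95% Wilson interval from 0.400 to 1.91 that covers counting error only. The means were 3.45 ± 1.96 (SD, n = 3) and 18.5 ± 8.73 (SD, n = 3), and the log2 fold change was 2.10 (standard error 0.56). It was the third highest of the 607 miRNAs tested, which is the kind of value that led to the choice of this locus. *MIR21*-KO was 3.49-fold above Ctrl within set A and 4.28-fold within set B.

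miR-212-5p, which shares no seed with another strand, stood at 12.8, 5.14 and 5.22 in the Ctrl libraries, with 19 to 48 reads each. The *MIR21*-KO libraries held 25.1, 20.2 and 47.5, with 280 to 365 reads each. Again the groups did not overlap, and *MIR21*-KO replicate 3 was the highest library. The means were 7.73 ± 4.41 (SD, n = 3) and 30.9 ± 14.5 (SD, n = 3), with a log2 fold change of 1.89 (standard error 0.54). Within set A *MIR21*-KO was 5.29-fold above Ctrl, and within set B 4.33-fold.

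**Figure D1:**
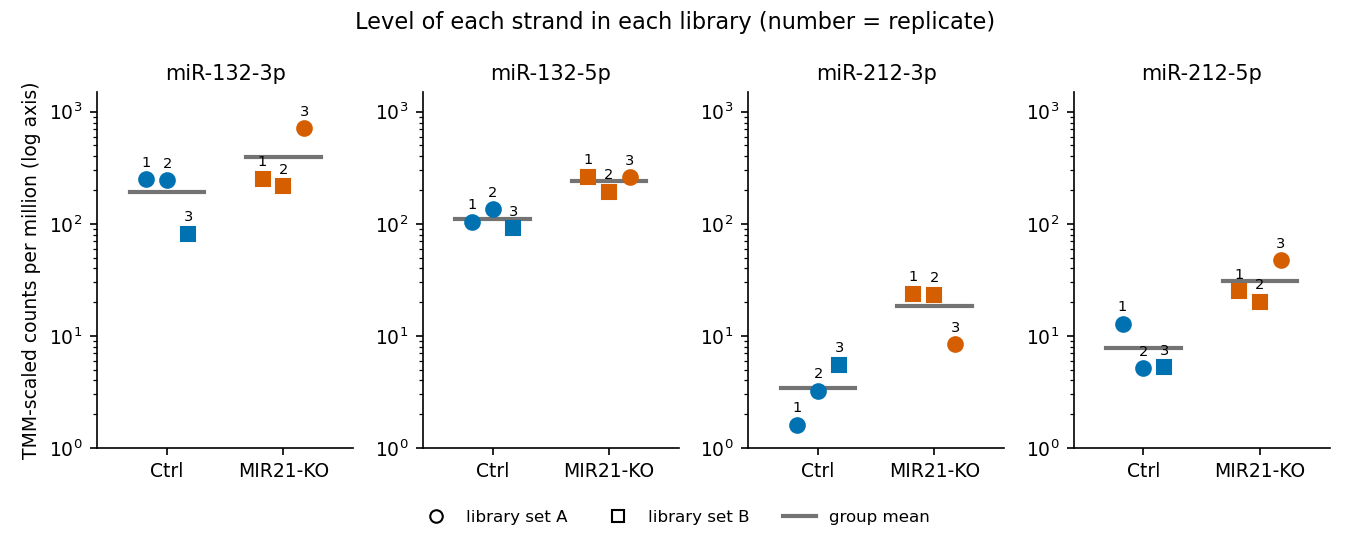
Deposited value of each strand (TMM-scaled CPM, log axis) in the 3 Ctrl and 3 *MIR21*-KO libraries, numbered by replicate, with circles for library set A, squares for set B and a line at the group mean. The groups overlap for miR-132-3p, where *MIR21*-KO replicate 3 reaches 709, and do not overlap for the other strands.

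The order of the strands by mean was miR-132-3p, miR-132-5p, miR-212-5p and miR-212-3p in both conditions. The strands of a hairpin overlapped in their values, so their order within it did not hold in every library. The hairpins did not overlap, as the lowest value of a miR-132 strand (81.1) lay above the highest of a miR-212 strand (47.5). Among all 2588 miRNAs, miR-132-3p ranked between place 68 (*MIR21*-KO replicate 3) and place 179 (Ctrl replicate 3), and miR-212-3p between place 256 and place 492. The cluster as a whole, summed over the strands, stood at 367, 389 and 183 in Ctrl against 565, 452 and 1025 upon deletion, with means of 313 ± 113 and 681 ± 304 (SD, n = 3 each). Its groups did not overlap, and the log2 fold change was 1.10.

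These levels rest on a scaling in which most miRNAs are set equal, and miR-21-5p takes up most reads in Ctrl alone. As RPM of all miRNA reads, miR-132-3p stood at 114 ± 47.9 in Ctrl against 598 ± 329 upon deletion (SD, n = 3 each). As RPM of the reads other than miR-21, which uses no TMM factor but still scales each library to a total, it stood at 351 ± 141 and 599 ± 329. On this last basis, the ratio of the means was 1.70 for miR-132-3p, 1.79 for miR-132-5p, 4.32 for miR-212-3p and 3.39 for miR-212-5p. Under median centring, which moves the median over all miRNAs from 0.24 to -0.02 (log2), the log2 fold changes were 0.69, 0.82, 1.86 and 1.61 in the same order. The direction was thus the same on each scale, and the size was not.

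Each strand had a value of at least 1 in all 6 libraries, so all 4 passed the filter on low values without relying on either condition. At an adjusted p under 0.05, limma called 0 of the 4 strands higher and 0 lower, beside 0% of the 607 miRNAs called higher and 0.824% called lower. At an unadjusted p under 0.05, 3 strands were higher, beside 6.75% of all miRNAs. Over all miRNAs, 41 were higher and 27 lower at this unadjusted threshold, a balance that turned to 13 and 43 with libraries scaled to the total without miR-21. On the reads, the edgeR quasi-likelihood test called 0 strands, beside 0% of all miRNAs called higher, and DESeq2 called 1 strand, beside 0.659%. That strand was miR-212-3p, the strand whose value had drawn attention to the locus, so the call restates that choice. With libraries scaled to the total of miRNA reads, limma called 4 of 4 higher, beside 32.3% of all miRNAs. A higher value in every *MIR21*-KO library than in every Ctrl library was found for 3 strands and for 9.56% of the miRNAs tested. The median log2 fold change of the 4 strands was 1.50, and that of all miRNAs was 0.24, with 61.8% of them above 0.

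When the libraries were compared within their sets, *MIR21*-KO lay above Ctrl for all 4 strands in both sets with no overlap, as it did for 30% of all miRNAs tested. In a limma fit with a term for the sets, the log2 fold changes were 1.52 (standard error 0.24) for miR-132-3p, 1.21 (0.26) for miR-132-5p, 1.71 (0.31) for miR-212-3p and 2.16 (0.35) for miR-212-5p. The standard error of miR-132-3p thus fell from 0.67 to 0.24, as it was the strand that differed most between the sets. This fit called all 4 strands higher, beside 11.7% of all miRNAs, and edgeR with the same term called all 4, beside 8.9%. miR-212-5p had the highest log2 fold change of the 607 miRNAs in this fit, which is again the comparison that led to the choice of this locus. Its Ctrl values rest on 19 to 48 reads. The sets were read from the same libraries, and each holds a single library of one of the conditions.

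The sets moved the strands in different directions. The log2 difference of set B from set A was -1.60 for miR-132-3p, -0.29 for miR-132-5p, 1.17 for miR-212-3p and -0.80 for miR-212-5p. The 3p strands, which share their seed and the first 9 bases, thus lay on opposite sides. Over all miRNAs tested, the lower and upper bounds of the central range of these differences (5th and 95th percentile) were -2.00 and 2.31, and the members lay between them.

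**Figure D2:**
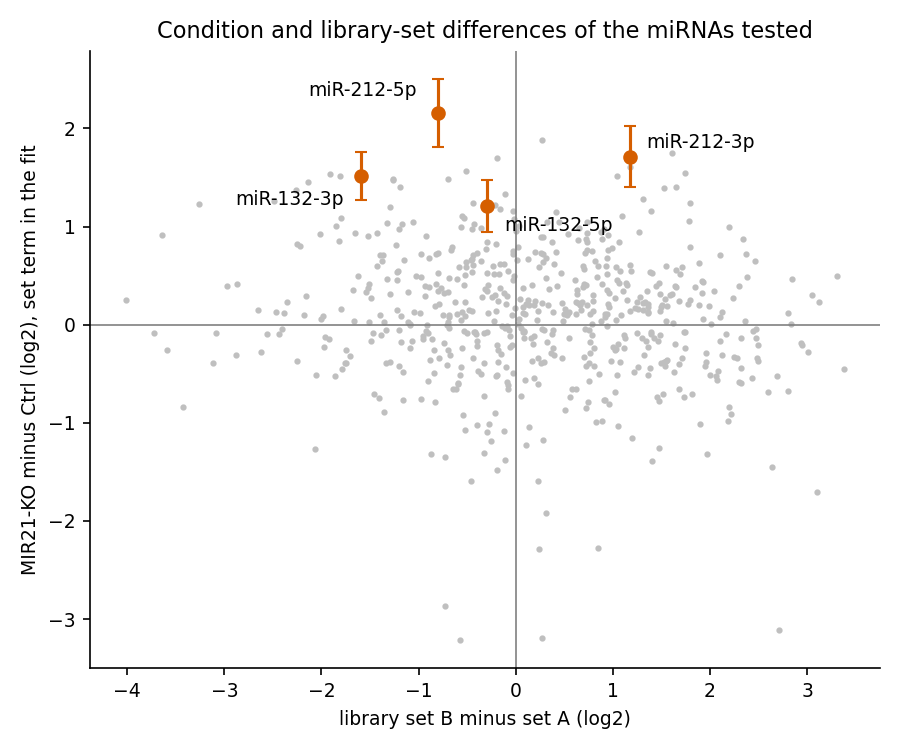
Log2 difference between *MIR21*-KO and Ctrl (y axis) against that between library sets B and A (x axis) in the limma fit with a set term, for the miRNAs tested without miR-21, with the members in orange and bars of 1 standard error. The members lie between 1.21 and 2.16 on the y axis but spread from -1.60 to 1.17 on the x axis.

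The share of the 3p strand in a hairpin's reads does not depend on any scaling. Of miR-132 reads, 70.4%, 64.5% and 47.0% were the 3p strand in Ctrl, against 49.1%, 52.7% and 73.2% upon deletion. The high shares were those of set A (64.5% to 73.2%) and the lower ones those of set B (47.0% to 52.7%), in both conditions. The group means were 60.6% ± 12.2 for Ctrl and 58.3% ± 13.0 for *MIR21*-KO (SD, n = 3 each), a difference well within the spread. Within the sets the order was the reverse, as *MIR21*-KO lay above Ctrl in both. In set A it had 73.2% against 70.4% and 64.5%, and in set B 49.1% and 52.7% against 47.0%. The Wilson intervals of the nearest libraries of the conditions overlapped in each set, and this difference was not tested. The Wilson intervals, which reached from 44.2% to 49.8% in Ctrl replicate 3 and from 67.9% to 72.8% in Ctrl replicate 1, did not overlap between the sets.

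For miR-212 the sets stood the other way round. Of miR-212 reads, 11.1%, 38.7% and 51.3% were the 3p strand in Ctrl, against 48.7%, 53.6% and 15.1% upon deletion. Set A ran from 11.1% to 38.7% and set B from 48.7% to 53.6%. The Ctrl shares rest on 54, 31 and 76 reads, and the 95% Wilson interval of Ctrl replicate 2 (23.7% to 56.2%) covered the shares of set B. The group means, 33.7% ± 20.6 and 39.1% ± 20.9 (SD, n = 3 each), differed by less than the spread.

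A shift between the strands of a hairpin with the sets was common. Among 75 hairpins whose strands both averaged at least 10, the ratio of 3p to 5p was lower in every set B library than in every set A library for 34 (45.3%), as for miR-132, and higher for 21 (28%), as for miR-212. The log2 shift of this ratio from set A to set B was -1.31 for miR-132 and 1.98 for miR-212, with a range of -5.12 to 5.64 over the 75.

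**Figure D3:**
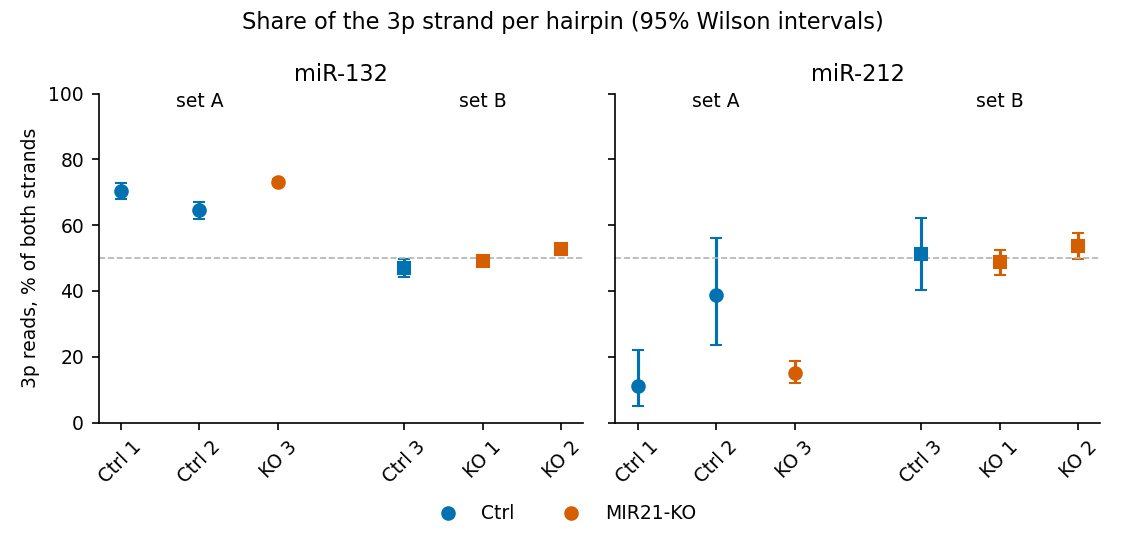
Reads of the 3p strand as a percentage of the reads of both strands of miR-132 (left) and miR-212 (right) in each library, ordered by library set, with Ctrl in blue, *MIR21*-KO in orange and 95% Wilson intervals for counting error. miR-132 lies at 64.5% or more in set A and at 52.7% or less in set B, and miR-212 shows the opposite order.

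miR-212 was the minor hairpin in every library. Its strands made up 3.92%, 2.15% and 5.85% of the cluster's reads in Ctrl, against 8.66%, 9.63% and 5.45% upon deletion. *MIR21*-KO replicate 3 lay below Ctrl replicate 3, so the groups overlapped, while within each set *MIR21*-KO was higher. In reads, miR-132 exceeded miR-212 by 24.5-, 45.4- and 16.1-fold in Ctrl, against 10.5-, 9.38- and 17.3-fold upon deletion. On the log2 scale this ratio was lower by 1.13 in the mean of *MIR21*-KO (log2 difference -1.13), and from -1.48 to -0.73 with each library left out in turn. Of the reads with the shared 3p seed, miR-212-3p supplied 0.640% and 1.30% in Ctrl replicates 1 and 2, 6.35% in Ctrl replicate 3, 8.61% and 9.76% in *MIR21*-KO replicates 1 and 2, and 1.18% in *MIR21*-KO replicate 3. This share followed the sets rather than the conditions, being at most 1.30% in set A and at least 6.35% in set B.

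To see which miRNAs behaved most like the members, profiles over the 6 libraries were compared by their root-mean-square distance on the log2 scale, after each was centred on its own mean. The comparison covered 328 other miRNAs that averaged at least 10, and the libraries share their scaling and sets. Closest to miR-132-3p were miR-181a-2-3p (0.21), miR-615-3p (0.22) and miR-1269b (0.23), where the median distance was 1.12. Closest to miR-132-5p was let-7f-5p (0.22), followed by let-7i-5p (0.23) and miR-503-5p (0.28), beside a median of 0.88. miR-212-3p lay closest to let-7b-5p (0.21), miR-328-3p (0.21) and let-7d-5p (0.22), beside a median of 1.17.

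miR-212-5p had no neighbor as close, with miR-146b-5p at 0.39, miR-135b-5p at 0.46 and miR-1301-3p at 0.49, beside a median of 1.23. The members lay farther from each other than from these miRNAs. The distance was 0.63 between the strands of miR-132, 1.11 between those of miR-212 and 1.44 between the 3p strands. The sum of the cluster was closest to miR-1269b (0.20), miR-181a-2-3p (0.26) and miR-584-5p (0.28).

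Of the other miRNA genes within 1 Mb, the nearest, MIR22, lies 335921 bases away. miR-22-3p, a widely expressed miRNA, had a log2 fold change of 0.71 (standard error 0.65), and miR-22-5p one of 0.44 (0.54). The other strands within 1 Mb, from MIR6776 and MIR1253, were below 1 in every library. Of the 2 neighboring strands tested, limma called 0, beside 0% of all miRNAs called higher and 0.824% called lower. As it also called 0 of the 4 members, this count does not set the neighbors apart from the locus. With the set term, the log2 fold changes were 0.20 for miR-22-3p and 0.72 for miR-22-5p.

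miR-132 and miR-212 are induced by stimuli, so 9 other miRNAs under inducible control were set beside them, namely miR-22-3p, the p53-induced miR-34a-5p, miR-34b-3p and miR-34c-5p, miR-134-5p of neuronal activity, the NF-kB-induced miR-146a-5p, miR-146b-5p and miR-155-5p, and the hypoxia-induced miR-210-3p. All 9 were tested and 0 were called by limma in either direction, while 9 had a log2 fold change above 0, beside 61.8% of all miRNAs. Their median was 0.87, beside 0.24 over all miRNAs and 1.50 over the members. In 5 of them, every *MIR21*-KO library lay above every Ctrl library, beside the 9.56% of all miRNAs given above. Within both library sets this held for 6 of them, beside 30% of all miRNAs tested. miR-146a-5p, for example, stood at 345, 433 and 1195 in Ctrl against 4456, 3558 and 1315 upon deletion. miR-134-5p stood at 145, 230 and 108 in Ctrl against 424, 434 and 296 upon deletion. With the set term, their median was 0.67, beside 0.12 over all miRNAs and 1.61 over the members, and 3 of the 9 were called higher and 0 lower. Beside this, 71 of all 607 miRNAs tested (11.7%) were called higher and 39 lower. The log2 fold changes of miR-34a-5p and miR-210-3p were then both -0.13, below 0.

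Since miR-132 is abundant in neurons, miRNAs that mark neurons and other cell types were checked. Of 7 neuronal miRNAs listed, 6 were analysed here, and 3 of them, with the neuron-defining miR-124-3p, stayed below 1 in every library. The summed value of the 6 ran from 433 to 787 in Ctrl against 176 to 218 upon deletion, most of it miR-9-5p. Among the Ctrl libraries, replicate 3 was lowest both in this sum and in the cluster sum, and among the *MIR21*-KO libraries replicate 3 was highest in both. The same order held for the haematopoietic, liver, and muscle and stromal values given below, so it was not particular to the neuronal miRNAs. miR-129-5p of this list had a log2 fold change of 0.49, and of 1.09 with the set term. Of 6 haematopoietic miRNAs, 4 stayed below 1, and the sum, mainly the erythroid miR-451a, ran from 2.26 to 43.8 in Ctrl against 3.10 to 9.36 upon deletion. The liver miRNA miR-122-5p ran from 7.90 to 141 and from 8.58 to 51.9. The sum of 5 muscle and stromal miRNAs, mainly miR-143-3p, overlapped, with 252 to 681 and 434 to 1301. That of 5 epithelial miRNAs of the miR-200 family, most of it miR-200b-3p, was 1374 to 2171 in Ctrl against 879 to 1269 upon deletion. Of these 5, miR-200c-3p alone had a log2 fold change above 0 (0.60). No member of these lists was called by limma in either direction. With the set term, limma called 1 of 5 epithelial miRNAs tested higher and 2 lower, and 1 of 3 neuronal higher and 2 lower. Of 3 tested of muscle and stroma it called 2 higher, while 0 of the haematopoietic and liver miRNAs tested were called. Over all 607 miRNAs tested, this fit called 71 (11.7%) higher and 39 lower. The part of such signals in the members' values was not tested.

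The fold changes of the strands were recomputed under 20 other settings each, and all were above 0. They ran from 0.45 to 2.36 for miR-132-3p, from 0.82 to 2.49 for miR-132-5p, from 1.04 to 3.23 for miR-212-3p and from 1.18 to 3.15 for miR-212-5p. The lowest values of the miR-212 strands came with a pseudocount of 10, which exceeds their Ctrl means. The lowest value of miR-132-3p came with *MIR21*-KO replicate 3 left out. The other filters, the replicate block and the unsummed rows left the estimates as they were. Scaling to the total of miRNA reads raises them by construction. The sign could thus not change in some of the 20 settings, and the locus was chosen in this same comparison.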

How the data were processed

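The authors deposited TMM-scaled CPM for 2813 rows, a signal of reads divided by 1 factor per library. The submitters' processing notes name hg38, cutadapt 1.14, Bowtie2 2.3.2, SAMtools 1.5, featureCounts 1.5.3 and edgeR 3.18.1. Per the labels, all 6 libraries were prepared and sequenced by Novogene, whereas the study's methods name a second preparation and sequencing route for small RNA without saying which libraries took it. The authors' own log2 fold changes and p-values (deposited as FDRs too) were not used. Within a relative tolerance of 1e-06, 100% of the values came out as whole reads, so the reads could be recovered. Rows were summed by name.

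Conditions were compared with limma 3.58.1 (R 4.3.3, eBayes with trend) on log2(value + 1) for the 607 miRNAs that reached 1 in no fewer than 3 of 6 libraries, with Benjamini-Hochberg adjustment. Fold changes on this scale understate the change of scarce miRNAs. The reads were tested with edgeR 4.0.16 and DESeq2 1.42.0, and 7 miRNAs had no adjusted p from DESeq2. Methods were tested on simulated counts that held no library sets, so that test does not bear on the calls in these libraries. Wilson intervals (95%, scipy 1.17.1) cover counting error only. Replicates differed by far more than counting noise (chi-square per degree of freedom from 130 to 2560). The named miRNAs are the 4 strands, those sharing a seed, those within 1 Mb, the inducible list, the 3 nearest profiles per member and for their sum, the markers of cell types, and miR-21 as the check of the deletion. Members, lists, the set term and most alternatives were chosen with earlier results of these data known.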

Additional observations from a re-analysis of the deposited data

How the results depend on the processing

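limma called 0 of the 4 strands higher upon deletion at the 0.05 threshold. The number was 4 with each library scaled to its total of miRNA reads, 4 with the library-set term, 1 with DESeq2 and 4 with that term in edgeR, the last chosen after seeing the data. The set term itself was also chosen with earlier results of these data known, and the sets were read from these same libraries. Scaling to the total of miRNA reads shifts the fold changes up by construction, since most Ctrl reads are miR-21-5p and its loss raises all other shares. This scaling called 32.3% of all miRNAs higher, and the log2 fold change of the cluster sum rose from 1.10 to 2.49 with it. Otherwise the sum ran from 0.76 (without Ctrl replicate 3, and the same without *MIR21*-KO replicate 3) to 1.45. The remaining settings, with pseudocounts of 0.1 and 10, other filters and scalings, unsummed rows, edgeR without the set term, an adjusted p under 0.01 and each library left out in turn, gave 0 calls. No strand was called lower in any setting. The difference between conditions in the 3p share changed sign with single libraries left out, from -9.74 to 2.57 percentage points for miR-132 and from -5.87 to 17.4 for miR-212. With the replicate number as a block, 0 strands were called higher. Same-numbered libraries deviated in opposite directions (correlations of -0.785, -0.606 and -0.878 over miRNAs), and each such pair lies in opposite library sets. The correlations thus cannot tell whether the numbers pair the libraries beneath the difference between the sets. For miR-212-3p in Ctrl, 6 to 39 reads limit the precision.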
